A study of Mus musculus with 12 samples.

Results

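The antioxidant and glutathione genes described here are 41 genes listed by symbol and matched by their Ensembl identifier to the count table of 21556 genes. The set holds 3 superoxide dismutases, catalase, 5 glutathione peroxidases, 7 genes of peroxiredoxins and sulfiredoxin, 5 of the thioredoxin system, 5 that supply or recycle glutathione, Nfe2l2 and Keap1, 3 quinone, heme and carbonyl enzymes, 8 glutathione S-transferases and 2 metallothioneins. All 41 were in the table and passed the limit on low values in each comparison. RNA was sequenced from primary fibroblasts of mouse abdominal skin, cultured in serum-containing medium, passaged, starved for 24 h and then left unstimulated or stimulated with TGF-β2 (10 ng/ml) for 24 h. WT cells came from the strain C57BL/6 and Nox4 KO cells from the strain B6.129-Nox4tm1Kkr/J, in which Nox4 was disrupted by gene targeting in every cell of the animal. For its mice the paper describes crosses of heterozygotes, whose WT and KO littermates then founded separate litters of each genotype. The 4 groups were WT control, WT with TGF-β2, Nox4 KO control and Nox4 KO with TGF-β2, each with 3 libraries. Neither the labels nor the methods state that the libraries of a group came from separate animals or cultures, so the p-values measure only the spread between these samples.

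Cells remove superoxide and peroxides in linked steps. Superoxide dismutases turn superoxide into hydrogen peroxide, which catalase, glutathione peroxidases and peroxiredoxins reduce, the last 2 families at the expense of glutathione or thioredoxin. NRF2, the product of Nfe2l2, is held by KEAP1 and degraded in resting cells, and when released it binds antioxidant response elements near genes for glutathione synthesis, quinone reduction and glutathione conjugation. NOX4 is itself a source of hydrogen peroxide, which is the reason to compare these genes between WT and Nox4 KO cells.

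The 250 bases before each start were searched on both strands for the core letters of the antioxidant response element, TGACNNNGC, which read GCNNNGTCA on the opposite strand and partly overlap the AP-1 motif. RefSeq sequences (GRCm38.p6) were found for 35 of the 41 genes, and 7 of them (20%) held the core, beside 11.5% of 27025 genes with an entry. The matches in those 7 genes are shown because NRF2 is the regulator named for this set. Each run is written 5′ to 3′ on the strand of the gene, with the core in capitals and 10 bases on either side.
Gclm: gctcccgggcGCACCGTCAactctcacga
Mgst1: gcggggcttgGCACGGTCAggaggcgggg
Mt2: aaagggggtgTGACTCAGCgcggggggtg
Nfe2l2: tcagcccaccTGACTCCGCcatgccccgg
Prdx1: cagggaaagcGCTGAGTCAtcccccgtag
Sod1: gccaaggtggGCGTGGTCAgactcaggcc
Txnrd1: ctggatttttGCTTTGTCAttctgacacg
These runs lie at chr3:122245413-122245441 for Gclm, chr6:138140461-138140489 for Mgst1, chr8:94172529-94172557 for Mt2, chr2:75704885-75704913 for Nfe2l2, chr4:116685456-116685484 for Prdx1, chr16:90220696-90220724 for Sod1 and chr10:82859104-82859132 for Txnrd1. Nfe2l2 is on the minus strand and the other 6 genes are on the plus strand. The Mgst1 run also lies inside the first exon of another annotated Mgst1 transcript, the Mt2 run inside an exon of the antisense gene Gm45774 and the Nfe2l2 run inside an exon of the processed transcript E030042O20Rik on the opposite strand. A match is a description of the letters and was not tested as a binding site.

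Gstt1, the gene of the set with the lowest log2 fold change after TGF-β2, and Nqo1, often used as a readout of NRF2, held no match in this window. Their upstream sequences are shown because both fell after TGF-β2 in WT, and the Nqo1 run leaves out the base next to the start, which is exonic. The Gstt1 run lies at chr10:75797732-75797981 and the Nqo1 run at chr8:107403207-107403455, both on the minus strand, and they are written 5′ to 3′ on that strand with no part in capitals.
Gstt1: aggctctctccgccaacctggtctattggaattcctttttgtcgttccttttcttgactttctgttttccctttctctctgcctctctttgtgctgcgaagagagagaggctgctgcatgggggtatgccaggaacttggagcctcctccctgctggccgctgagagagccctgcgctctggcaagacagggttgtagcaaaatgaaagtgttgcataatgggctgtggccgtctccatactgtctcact
Nqo1: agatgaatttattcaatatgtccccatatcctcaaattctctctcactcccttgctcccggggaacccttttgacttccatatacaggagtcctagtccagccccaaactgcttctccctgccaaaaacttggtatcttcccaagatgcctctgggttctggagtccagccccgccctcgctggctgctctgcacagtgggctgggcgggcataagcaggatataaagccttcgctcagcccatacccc
The absence of these 9 letters from the window says nothing of binding elsewhere.

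Most of the 41 genes were well expressed. Levels are given as RPKM, the reads of a gene scaled by its exon length and by the library total, which allows genes to be compared per length. The group means ran from 1.74 RPKM for Slc7a11, the cystine transporter subunit, to 349 RPKM for Hmox1, heme oxygenase, in WT control, with a median over the 41 genes of 45.3 RPKM. In that group 11 genes were at or above 100 RPKM and 5 were under 10 RPKM. Together the genes took 0.552 to 0.646% of all counted reads in WT control, 0.479 to 0.618% in WT with TGF-β2, 0.555 to 0.616% in Nox4 KO control and 0.434 to 0.489% in Nox4 KO with TGF-β2. The shares of the 3 KO libraries with TGF-β2 therefore lay below those of the 3 KO controls, while the WT groups overlapped.

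Library totals ran from 35118344 to 43796260 counts. All 10 fibroblast markers were at or above 1 RPKM in every group, keratinocyte markers summed to less than 1 RPKM in every library, and 4 of 5 red blood cell genes had no count in any group. Macrophage markers, 4 of 5 of them at or above 1 RPKM in WT control, summed to between 11.6 and 106 RPKM with overlapping groups. The 4 adipocyte markers, carried by Fabp4 with Plin1 and Lep near 0, summed to 2.86 to 5.58 RPKM in WT control and 0.524 to 1.21 RPKM with TGF-β2, and to 0.66 to 3.93 and 0.18 to 0.707 RPKM in Nox4 KO. The fibroblast markers summed to 8500 to 9040 RPKM in WT control and 5860 to 6920 RPKM with TGF-β2, and to 8840 to 9770 and 6500 to 7250 RPKM in Nox4 KO. The 4 endothelial markers, carried by Kdr with Pecam1 and Cdh5 near 0, summed to 2.51 to 4.1 and 1.67 to 2.34 RPKM in WT and to 3.01 to 5.38 and 2.4 to 2.86 RPKM in Nox4 KO. The 5 skeletal muscle markers, carried by Acta1 with Ckm and Myog near 0, went the other way, with 43.1 to 98.9 and 276 to 615 RPKM in WT and 90 to 110 and 257 to 571 RPKM in Nox4 KO. These 3 sums did not overlap between control and stimulated libraries of a genotype, and the part of these markers in the changes below was not tested. In bulk RNA, fewer cells of a type and less RNA per cell cannot be told apart. Nox4 measured 1.48, 1.31 and 2.42 RPKM in WT control and 0.655, 0.636 and 1.4 RPKM in Nox4 KO control, then 10.9, 8.56 and 16.3 RPKM in WT and 4.54, 4.39 and 6.85 RPKM in Nox4 KO with TGF-β2. A count summed over a whole gene cannot tell the disrupted exons from the rest, so Nox4 does not check the labels.

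To ask how these genes respond to TGF-β2, stimulated and control libraries were compared within each genotype by edgeR's quasi-likelihood test, and a gene was called at an adjusted p under 0.05 over all genes tested. In WT, 10 of the 41 genes changed (24.4%, beside 22.9% of 10743 genes). Txn2 rose, beside 10.6% of all genes called higher, and Sod3, Cat, Gclm, Gsr, Nfe2l2, Nqo1, Gsta4, Gstt1 and Mgst1 fell. The 9 that fell stand beside 12.3% of all genes called lower. Of these, Sod3, Nqo1, Gsta4, Gstt1 and Mgst1, 5 genes, fell at least 2-fold, beside 5.10% of all genes. The log2 fold change was below 0 for 26 of the 41 genes, beside 50.3% of all genes, and its median was -0.15, beside 0.00. Groups of 3 libraries did not overlap for 16 of the 41 genes, beside 45.2% of all genes. Stimulated libraries lay above control for 4 of them, beside 20.3%, and below for 12, beside 24.9%.

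In Nox4 KO, 14 of the 41 genes changed (34.1%, beside 30.3% of 10809 genes). Txn2 rose, beside 15.2% of all genes called higher, and Sod1, Sod3, Gpx4, Prdx2, Prdx5, Txnip, Gclm, Keap1, Gsta4, Gstm2, Gstp1, Gstt1 and Mgst1 fell. The 13 that fell stand beside 15.0% of all genes called lower, and 4 of them, Sod3, Gsta4, Gstt1 and Mgst1, fell at least 2-fold, beside 4.60%. The log2 fold change was below 0 for 31 of the 41 genes, beside 51.8% of all genes, and its median was -0.28, beside -0.01. Libraries did not overlap for 21 of the 41 genes, beside 48.5% of all genes, with 1 above control, beside 17.0%, and 20 below, beside 31.5%. Same-numbered KO libraries deviated together and were treated as pairs, which neither labels nor methods state. With this replicate block 28 of the 41 genes were called, beside 54.0% of all genes. Of these 3 were higher, beside 25.1%, and 25 lower, beside 28.8%. Values of single genes with the block are given for Nox4 KO only and are not set against WT.

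Txn2, Sod3, Gclm, Gsta4, Gstt1 and Mgst1 were called in both genotypes in the same direction, which is 6 of the 10 WT calls and 6 of the 14 KO calls. The share of all genes called in both genotypes was not computed, so these counts are not read as high or low. The test of a difference between the genotypes' responses called none of the 41 genes, so a call in 1 genotype alone does not show a genotype difference.

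**Figure D1:**
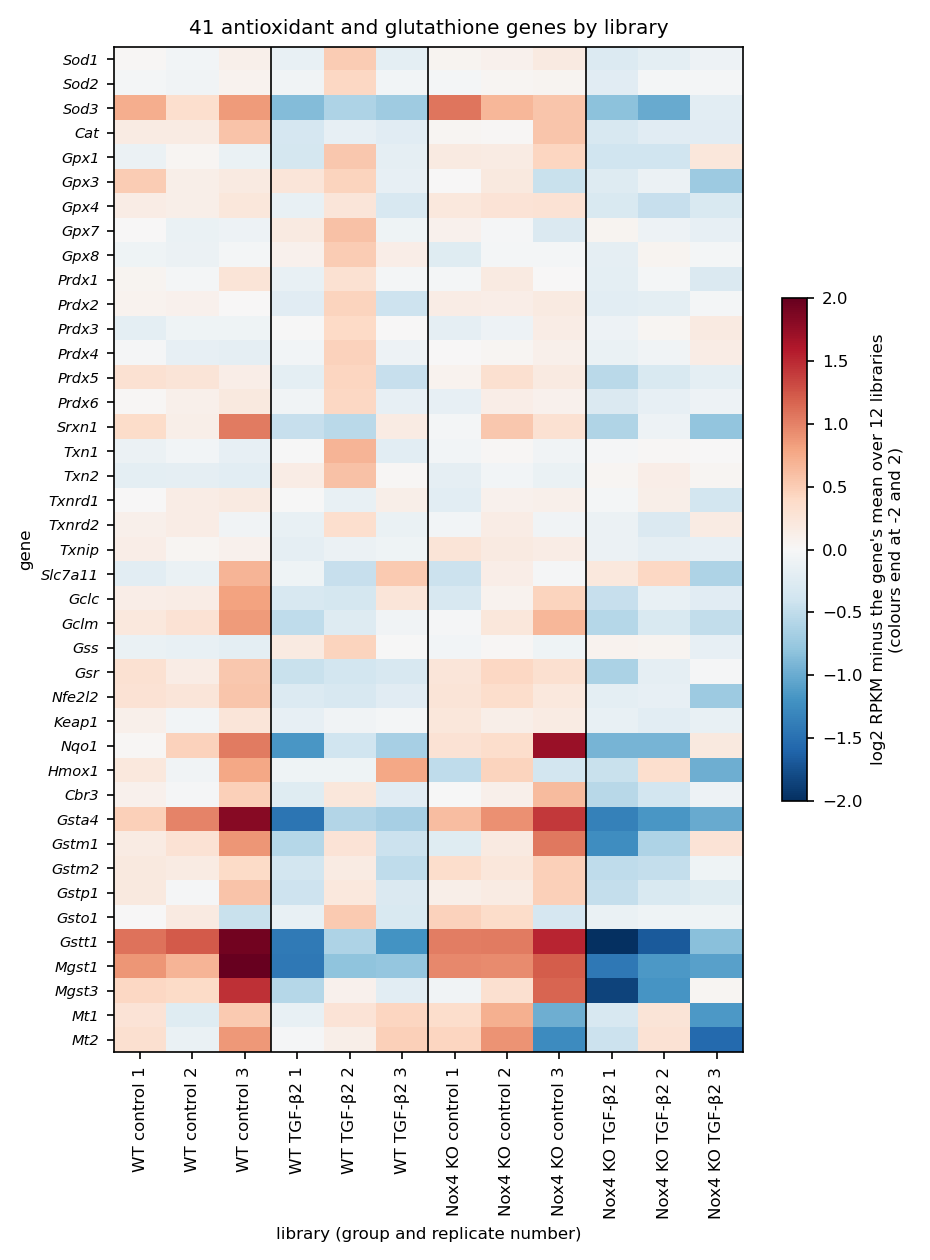
Each row is 1 of the 41 genes and each column 1 of the 12 libraries; colour gives log2 RPKM minus the gene's mean over the 12 libraries, in log2 units, with the scale ending at -2 and 2. The transferases Gsta4, Gstt1 and Mgst1 and Sod3 are red in every control library and blue in every library with TGF-β2, while Mt1 and Mt2 are lowest in the KO libraries numbered 3.

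The glutathione S-transferases held the largest changes. These enzymes couple glutathione to electrophiles such as the products of lipid peroxidation, and Mgst1 and Mgst3 encode membrane-bound enzymes of the group. In WT 3 of the 8 fell, beside 12.3% of all genes called lower, and 5 were not called. In Nox4 KO 5 of the 8 fell, beside 15.0% of all genes, or 7 with the replicate block, beside 28.8%. The median log2 fold change of the 8 was -0.82 in WT and -1.0 in Nox4 KO.

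Gstt1, a theta class transferase, measured 6.02, 6.59 and 10.8 RPKM in WT control and 1.06, 1.84 and 1.23 RPKM with TGF-β2. In Nox4 KO it measured 5.76, 5.83 and 8.16 RPKM in control and 0.671, 0.882 and 1.58 RPKM with TGF-β2. All stimulated libraries lay below all controls in both genotypes. The fall was 5.5-fold in WT (log2 fold change -2.46 ± 0.29 SE, adjusted p = 0.00243) and 5.93-fold in Nox4 KO (-2.57 ± 0.32, adjusted p = 0.00477).

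Mgst1, a microsomal transferase with peroxidase activity, measured 18.6, 16.2 and 40.4 RPKM in WT control and 3.73, 5.77 and 5.91 RPKM with TGF-β2. The KO libraries held 19.5, 19.4 and 23.3 RPKM in control and 3.73, 4.53 and 4.72 RPKM with TGF-β2. Control library 3 of WT stood well above the other WT controls, yet no stimulated library reached the lowest control. Mgst1 fell 4.72-fold in WT (-2.24 ± 0.37, adjusted p = 0.00739) and 4.52-fold in Nox4 KO (-2.17 ± 0.12, adjusted p = 0.001).

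Gsta4, an alpha class enzyme active on 4-hydroxynonenal, measured 7.8, 11.1 and 19.7 RPKM in WT control and 2.02, 3.73 and 3.52 RPKM with TGF-β2. Its KO levels were 8.57, 10.5 and 14.9 RPKM in control and 2.19, 2.49 and 2.77 RPKM with TGF-β2. Again library 3 was the highest control in each genotype and the groups did not overlap. The fall was 4.04-fold in WT (-2.02 ± 0.37, adjusted p = 0.0109) and 4.28-fold in Nox4 KO (-2.10 ± 0.22, adjusted p = 0.00338).

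The other transferases moved less or varied more between libraries. Mgst3 measured 27.3, 26.5 and 56.5 RPKM in WT control against 13.7, 21.7 and 17.7 RPKM with TGF-β2, groups that did not overlap, with a log2 fold change of -1.01 ± 0.31 that missed the threshold (adjusted p = 0.0585). In Nox4 KO it measured 19.5, 25.6 and 45.9 RPKM against 5.63, 9.01 and 21.1 RPKM (-1.26 ± 0.54, adjusted p = 0.124), and it was called with the replicate block (-1.36, adjusted p = 0.00112). Each KO library with TGF-β2 lay below the control of its own number. Gstm2, a mu class enzyme, fell in Nox4 KO from 56.1 ± 4.91 to 34.5 ± 5.84 RPKM (SD, n = 3; -0.62 ± 0.12, adjusted p = 0.0164), and its value in WT was -0.42 ± 0.17 (adjusted p = 0.12). Gstp1, a pi class enzyme, fell in Nox4 KO from 37.2 ± 5.32 to 24.6 ± 1.97 RPKM (adjusted p = 0.0207), with -0.36 ± 0.20 in WT (adjusted p = 0.226). Gstm1 gave -0.63 ± 0.26 in WT and -0.74 ± 0.47 in Nox4 KO without a call, and with the replicate block it was called in Nox4 KO (-0.77, adjusted p = 0.000624). Gsto1, an omega class enzyme and at 323 ± 69.3 RPKM the most abundant transferase of the set in WT control, was called in neither genotype (0.16 ± 0.26 and -0.22 ± 0.21). Reads that map to several places were discarded, so the levels of near-identical genes such as Gstm1 and Gstm2, or Gstp1 and its copy Gstp2, are uncertain.

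**Figure D2:**
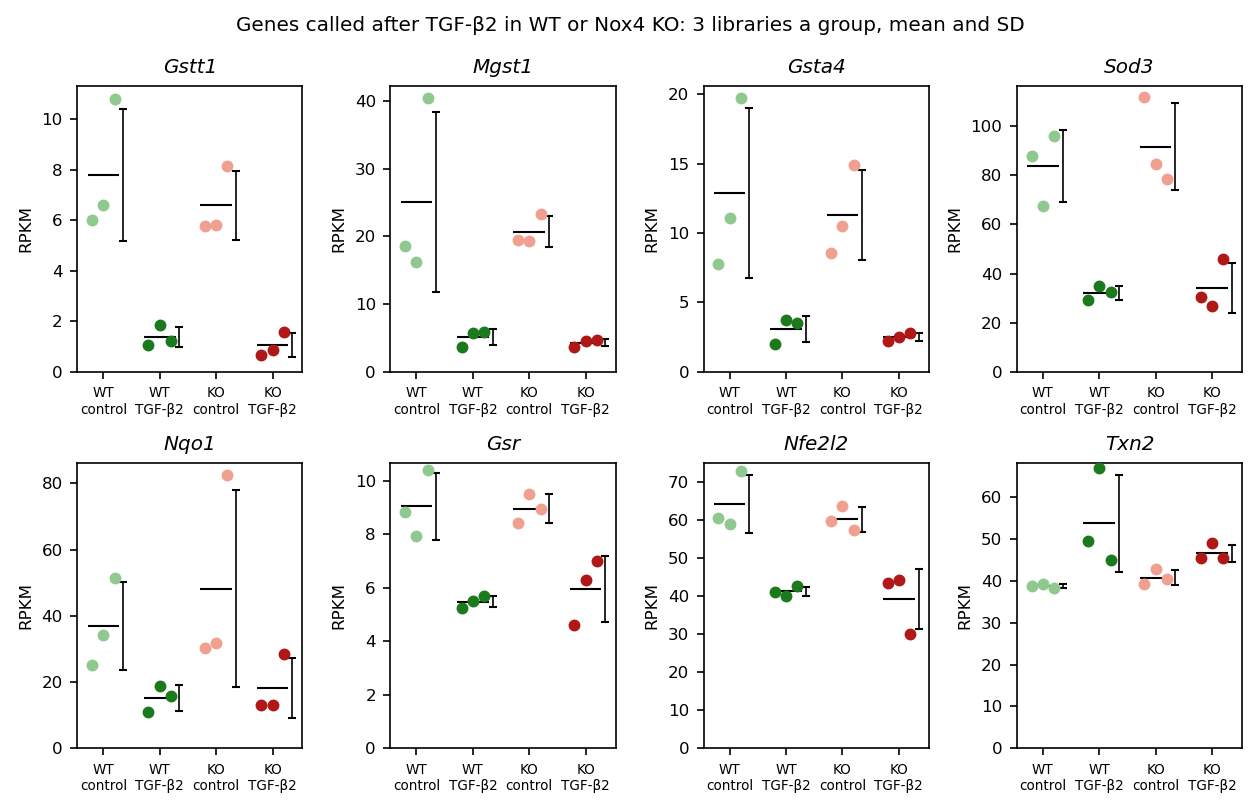
RPKM (linear axis from 0) of 8 genes called after TGF-β2 in WT or Nox4 KO, with 1 point a library, the group mean as a line and the SD as a bar (n = 3). Gstt1, Mgst1, Gsta4, Sod3, Nqo1, Gsr and Nfe2l2 are lower in every stimulated library than in every control of the same genotype, and Txn2 is higher.

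Of the superoxide dismutases, Sod3 fell in both genotypes. Sod3 encodes the secreted, extracellular enzyme. It measured 88, 67.5 and 95.9 RPKM in WT control and 29.2, 34.8 and 32.7 RPKM with TGF-β2, and 112, 84.6 and 78.6 against 30.3, 26.6 and 45.8 RPKM in Nox4 KO. No stimulated library overlapped a control of its genotype. The fall was 2.53-fold in WT (-1.34 ± 0.14, adjusted p = 0.00156) and in Nox4 KO (-1.34 ± 0.24, adjusted p = 0.0114).

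Sod1, the cytosolic enzyme, was not called in WT (0.10 ± 0.18, adjusted p = 0.714) and fell slightly in Nox4 KO, from 166 ± 7.95 to 135 ± 8.36 RPKM (-0.21 ± 0.061, adjusted p = 0.0446). This KO call was lost under edgeR's exact test, without the limit on low values and with all 12 libraries in 1 fit. Sod2, the mitochondrial enzyme, was called in neither genotype (0.17 ± 0.13 and -0.04 ± 0.07). Sod1 overlaps Scaf4 on the opposite strand, and whether counting used the strand is not stated. Cat, the peroxisomal catalase, measured 32.9, 33.2 and 43.8 RPKM in WT control and 23.4, 26.2 and 25.1 RPKM with TGF-β2. Its stimulated WT libraries all lay below the controls (-0.52 ± 0.12, adjusted p = 0.0218). The Cat value in Nox4 KO was -0.39 ± 0.14 (adjusted p = 0.0778), and with the replicate block it was called (-0.38, adjusted p = 0.0272).

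None of the 5 glutathione peroxidases was called in WT, and Gpx4 fell in Nox4 KO. Gpx4 reduces lipid hydroperoxides in membranes. It measured 24, 25.2 and 25.4 RPKM in KO control and 16.9, 15.1 and 16.9 RPKM with TGF-β2, a fall of 1.43-fold (-0.52 ± 0.072, adjusted p = 0.00598). The WT libraries, at 23.1, 22.5 and 24.3 RPKM in control and 18.8, 24.6 and 16.7 RPKM with TGF-β2, overlapped, with WT library 2 with TGF-β2 above all WT controls (-0.18 ± 0.14, adjusted p = 0.398). Gpx8, a peroxidase of the endoplasmic reticulum, had the smallest adjusted p of the group in WT, at 165, 162 and 171 RPKM against 186, 251 and 192 RPKM (0.38 ± 0.12, adjusted p = 0.0626). In Nox4 KO its value was 0.14 ± 0.086, called as higher only with the replicate block (adjusted p = 0.0352). The related enzyme Gpx7 gave 0.36 ± 0.17 in WT and 0.09 ± 0.13 in Nox4 KO. Gpx1, the abundant cytosolic enzyme, gave 0.15 ± 0.22 and -0.34 ± 0.18, and secreted Gpx3 gave -0.04 ± 0.18 and -0.20 ± 0.23. With the replicate block both were called lower in Nox4 KO, at adjusted p = 0.0199 for Gpx1 and 0.013 for Gpx3.

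The peroxiredoxins, thiol peroxidases, changed little. In WT none of the 6 or Srxn1 was called, with log2 fold changes of -0.75 to 0.31 over the 7 genes. Prdx3, the mitochondrial form, gave 0.31 ± 0.12 in WT (adjusted p = 0.104) with all stimulated libraries above the controls. In Nox4 KO, Prdx2, the cytosolic form, fell from 90.5 ± 1.19 to 73.5 ± 4.96 RPKM (adjusted p = 0.0395) and Prdx5 from 117 ± 10.1 to 80.5 ± 9.49 RPKM (adjusted p = 0.0259). Both overlap other genes, Prdx2 with Junb and Rnaseh2a and Prdx5 with Trmt112. Both calls were lost with all 12 libraries in 1 fit, and that of Prdx2 also under the exact test and without the limit on low values. Prdx1, Prdx4 and Prdx6 were called in neither genotype. With the replicate block, Prdx3 was called higher in Nox4 KO at adjusted p = 0.0258.

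Srxn1, sulfiredoxin, repairs over-oxidised peroxiredoxins and had the smallest adjusted p of its group in WT. It measured 70.5, 59.4 and 113 RPKM in WT control and 39.9, 37.9 and 61.7 RPKM with TGF-β2, with WT library 3 highest in both groups. Its log2 fold change was -0.75 ± 0.28 in WT (adjusted p = 0.0948) and -0.67 ± 0.22 in Nox4 KO (adjusted p = 0.0649), where the replicate block called it lower (-0.69, adjusted p = 0.0042).

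Txn2, the mitochondrial thioredoxin, was the gene that rose in both genotypes. It measured 38.7, 39.3 and 38.3 RPKM in WT control and 49.5, 66.9 and 45 RPKM with TGF-β2, and 39.2, 42.8 and 40.4 against 45.5, 49 and 45.5 RPKM in Nox4 KO. The stimulated libraries lay above the controls in each genotype, with WT library 2 the highest. The rise was 1.42-fold in WT (0.51 ± 0.15, adjusted p = 0.0472) and 1.21-fold in Nox4 KO (0.28 ± 0.066, adjusted p = 0.0256). The WT call was lost under upper-quartile and total count normalization and when each group had to reach 1 RPKM, and the KO call under total count normalization (0.19, adjusted p = 0.0567) and with all 12 libraries in 1 fit (0.32, adjusted p = 0.0578), the direction staying the same. Txnip, which binds and inhibits thioredoxin, fell in Nox4 KO from 141 ± 5.32 to 111 ± 2.6 RPKM (-0.25 ± 0.059, adjusted p = 0.0246) and gave -0.18 ± 0.081 in WT (adjusted p = 0.161) with groups that did not overlap. Txn1, the cytosolic thioredoxin, and the reductases Txnrd1 and Txnrd2 were called in neither genotype.

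Among the genes of glutathione supply, Gsr and Gclm fell in WT. Gsr, glutathione reductase, returns oxidised glutathione to its reduced form. It measured 8.83, 7.93 and 10.4 RPKM in WT control and 5.26, 5.52 and 5.69 RPKM with TGF-β2 (-0.68 ± 0.12, adjusted p = 0.00833). The KO levels of Gsr were 8.42, 9.51 and 8.94 RPKM against 4.61, 6.29 and 6.99 RPKM, without overlap, and just missed the threshold (-0.50 ± 0.16, adjusted p = 0.0575). With the replicate block Gsr was called lower in Nox4 KO (adjusted p = 0.0128).

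Gclm, the modifier subunit of the enzyme of the rate-limiting step of glutathione synthesis, fell 1.63-fold in WT, from 21.6 ± 5.53 to 12.8 ± 1.91 RPKM (adjusted p = 0.0328), and 1.61-fold in Nox4 KO, from 19.3 ± 4.68 to 11.3 ± 1.06 RPKM (adjusted p = 0.0288). The catalytic subunit Gclc gave -0.46 ± 0.23 and -0.28 ± 0.19 without a call, and with the replicate block its KO value also missed the threshold (adjusted p = 0.0953). Gss, glutathione synthetase, gave 0.42 ± 0.13 in WT (adjusted p = 0.0551), its stimulated libraries all above the controls, and 0.11 ± 0.087 in Nox4 KO. Slc7a11 was called in neither genotype (-0.07 ± 0.32 and 0.24 ± 0.29), at 1.74 ± 0.631 RPKM in WT control.

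Nfe2l2, which encodes NRF2, fell in WT. It measured 60.5, 59.1 and 73 RPKM in WT control and 41.1, 40 and 42.6 RPKM with TGF-β2 (-0.60 ± 0.096, adjusted p = 0.00689). Nox4 KO libraries held 59.7, 63.8 and 57.3 RPKM in control and 43.5, 44.2 and 30.1 RPKM with TGF-β2, without overlap (-0.53 ± 0.16, adjusted p = 0.0509), and the replicate block called the gene lower (-0.55, adjusted p = 0.00588). KO library 3 with TGF-β2 was the lowest of the 12. Keap1, whose product sends NRF2 for degradation, fell in Nox4 KO from 14.4 ± 0.551 to 11.4 ± 0.283 RPKM (-0.25 ± 0.055, adjusted p = 0.0207) and gave -0.15 ± 0.093 in WT (adjusted p = 0.288). The KO call of Keap1 was lost with all 12 libraries in 1 fit (adjusted p = 0.0546). The values of both genes are transcript levels, while NRF2 is controlled largely through the stability of the protein, which was not measured here.

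Nqo1, NAD(P)H quinone dehydrogenase, measured 25.2, 34.2 and 51.3 RPKM in WT control and 11.1, 18.8 and 15.7 RPKM with TGF-β2, a fall of 2.36-fold (-1.24 ± 0.28, adjusted p = 0.0207). This WT call was lost with all 12 libraries in 1 fit (adjusted p = 0.0518). Nox4 KO libraries spread widely, with 30.3, 31.7 and 82.6 RPKM in control and 13, 13 and 28.6 RPKM with TGF-β2, and the log2 fold change of -1.31 ± 0.50 was not called (adjusted p = 0.0948). Library 3 was the highest in both KO groups, so that between same-numbered libraries the change was even. With the replicate block the gene was called lower (-1.26 ± 0.072, adjusted p = 0.00026). Cbr3, a carbonyl reductase, gave -0.22 ± 0.17 in WT and -0.51 ± 0.19 in Nox4 KO (adjusted p = 0.387 and 0.0931), and was called lower in Nox4 KO with the replicate block (adjusted p = 0.0035). Hmox1 was called in neither genotype (-0.04 ± 0.29 and -0.10 ± 0.40), also not with the replicate block in Nox4 KO (adjusted p = 0.404).

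**Figure D3:**
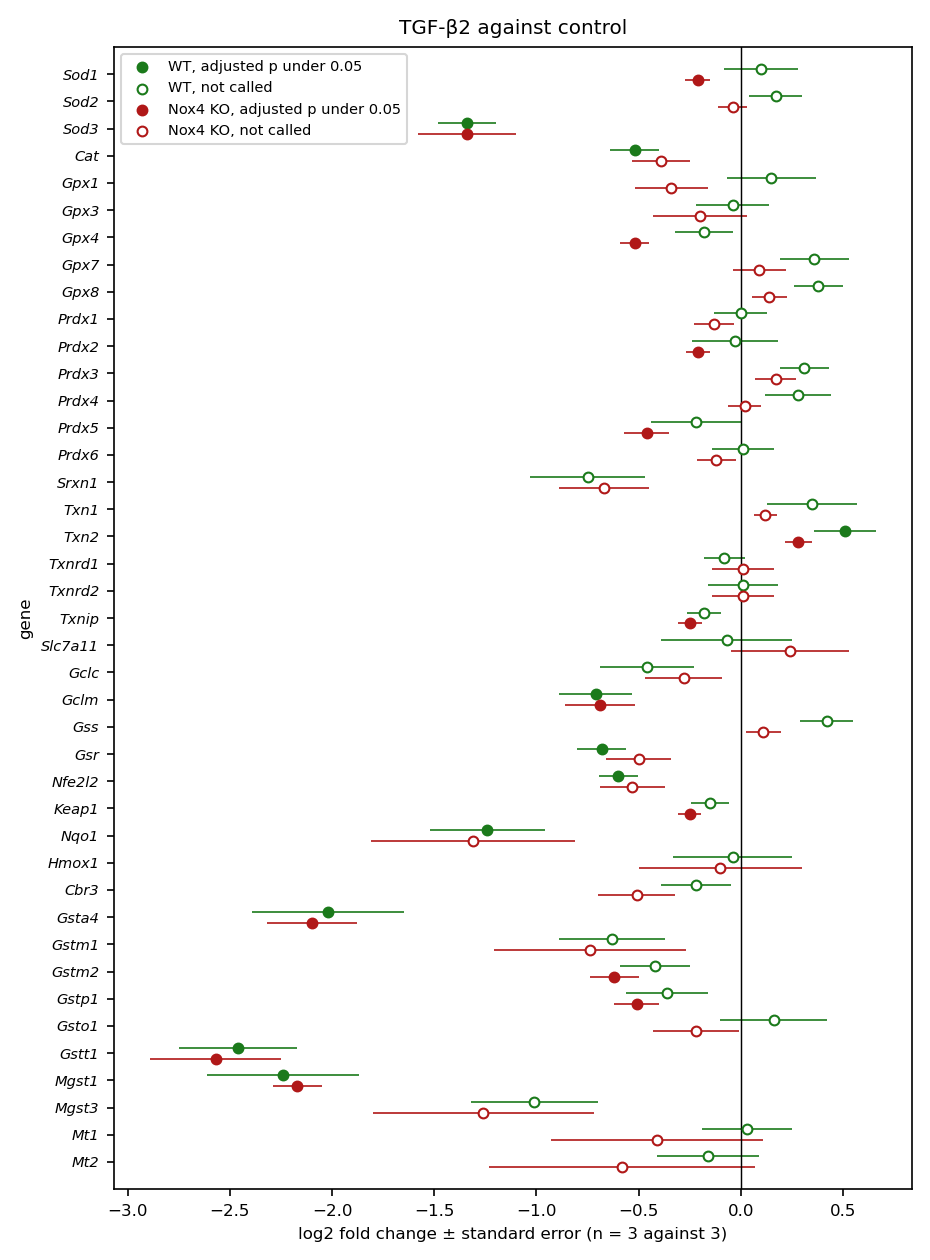
Log2 fold change of the 41 genes with TGF-β2 against control in WT (green) and Nox4 KO (red), with standard errors, 3 libraries against 3; filled points had an adjusted p under 0.05 without the replicate block. Gstt1, Mgst1 and Gsta4 lie at -2.02 or lower in both genotypes, Sod3 at -1.34 in both, and Txn2 is the filled point above 0.

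The metallothioneins, small cysteine-rich proteins that bind zinc and copper, differed more between libraries than between groups. Mt2 measured 65.6, 47.9 and 96.4 RPKM in WT control and 51.7, 57.1 and 72.9 RPKM with TGF-β2 (-0.16 ± 0.25, adjusted p = 0.663). In Nox4 KO it measured 71.2, 98.1 and 22 RPKM in control and 39, 64 and 17.9 RPKM with TGF-β2 (-0.58 ± 0.65, adjusted p = 0.521). KO libraries 3 were the lowest of all 12 in both conditions. Mt1 had the same order, at 38.1, 49 and 15.2 RPKM in KO control and 23.9, 35.6 and 13.4 RPKM with TGF-β2. With the replicate block both were called lower in Nox4 KO, at -0.36 (adjusted p = 0.0323) for Mt1 and -0.53 (adjusted p = 0.0136) for Mt2.

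Hmox1 also varied between libraries, at 316, 261 and 470 RPKM in WT control and 259, 259 and 467 RPKM with TGF-β2. In Nox4 KO it measured 193, 374 and 213 RPKM in control and 201, 346 and 139 RPKM with TGF-β2. The highest library had the same number in both conditions, 3 in WT and 2 in Nox4 KO. The macrophage marker sums were highest in libraries 3 of WT (106 and 72 RPKM) and in libraries 1 of Nox4 KO (81 and 58.3 RPKM). Libraries 2 of Nox4 KO held 29.2 and 20.7 RPKM. Whether macrophage content bears on the spread of Hmox1 was not tested.

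**Figure D4:**
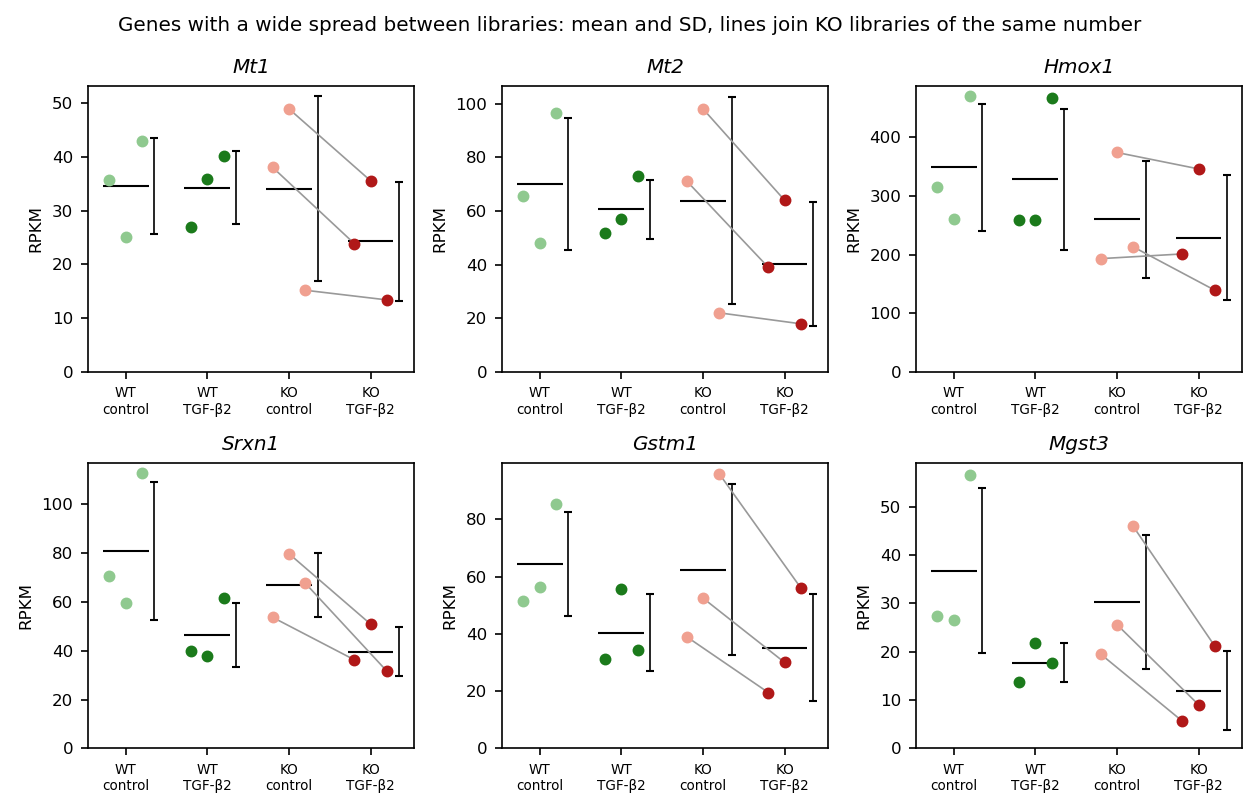
RPKM (linear axis from 0) of Mt1, Mt2, Hmox1, Srxn1, Gstm1 and Mgst3 in the 12 libraries, with group means as lines and SDs as bars (n = 3); grey lines join KO control and stimulated libraries of the same number. Mt2 spans 22 to 98.1 RPKM over the KO controls, more than the distance between any group means, while each Gstm1 and Mgst3 line goes down.

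The 3 libraries of each group were ranked for each gene. WT control library 3 was the highest of its group for 29 of the 41 genes, beside 53.7% of 10890 genes. WT library 2 with TGF-β2 was the highest for 28 of the 41, beside 51.1%, and WT library 1 with TGF-β2 the lowest for 23, beside 28.6%. In Nox4 KO, library 3 was the highest for 20 of the 41 genes in control, near the 48% of all genes, and for 22 with TGF-β2, beside 44.7%. KO library 1 was the lowest for 24 of the 41 genes in control, beside 34.6%, and for 23 with TGF-β2, beside 37%. Without WT control library 3, 6 of the 41 genes were called in WT, beside 13.6% of all genes, and without WT library 2 with TGF-β2, 15 were called, beside 31.7%. Leaving out WT library 1 with TGF-β2 also left 6 calls, beside 12.0%. In Nox4 KO, 8 genes were called without control library 1, beside 15.5% of all genes, and 7 without control library 2, beside 16.6%. Without stimulated library 1 the count was 5, beside 16.5%, and without stimulated library 2 it was 6, beside 10.7%. Sod3, Gsta4, Gstt1 and Mgst1 were called in both genotypes whichever library was left out, as were Gsr and Nfe2l2 in WT and Gpx4 in Nox4 KO. Of the 6 fits with 1 library left out, Cat was called in 4, Nqo1 in 3 and Gclm and Txn2 in 2 each in WT, and in Nox4 KO Prdx5, Gstm2 and Gstp1 were called in 3 each, Gclm, Txn2, Txnip and Keap1 in 2 each and Sod1 and Prdx2 in 1 each.

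Genotype was compared next, first in unstimulated cells, where a loss of NOX4 might show in the enzymes that handle peroxides. None of the 41 genes was called by edgeR's quasi-likelihood test, as none of 10767 genes was (0%), and DESeq2 and edgeR's exact test also called 0 of the 41. The quasi-likelihood test did not call the targeted gene Nox4 either (-1 ± 0.37, adjusted p = 0.83). A lack of calls therefore does not show a lack of difference, and the paper reported a few genes between genotypes. Of the 41, only Gpx1 had an unadjusted p under 0.05, beside 5.54% of all genes. Log2 fold changes of Nox4 KO against WT ran from -0.45 for Hmox1 to 0.34 for Nqo1, with a median of -0.05 beside 0.00 over all genes. Values were below 0 for 25 of the 41 genes, beside 49.3% of all genes, and for 14 of 41 when WT control library 3 was left out.

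Gpx1 measured 218, 243 and 216 RPKM in WT control and 267, 263 and 317 RPKM in Nox4 KO control, with every KO library above every WT library (0.28 ± 0.091, unadjusted p = 0.0199, adjusted p = 0.83). Prdx4, a peroxiredoxin of the endoplasmic reticulum, measured 48.4, 44 and 43.4 RPKM in WT and 49.8, 50.6 and 52.9 RPKM in Nox4 KO (0.13 ± 0.071, adjusted p = 0.83). Gpx3 measured 382, 293 and 305 RPKM in WT and 272, 308 and 198 RPKM in Nox4 KO (-0.37 ± 0.20, adjusted p = 0.83). The KO libraries of Gpx1 and Prdx4 were thus above those of WT, and those of Gpx3 overlapped. Libraries did not overlap for 5 genes, Gpx1, Prdx2, Prdx4, Txnip and Gss, all higher in Nox4 KO, beside 10.9% of all genes.

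After TGF-β2 none of the 41 genes was called for Nox4 KO against WT, as none of 10439 genes was (0%), and DESeq2 and the exact test called 0 of the 41 here too. Nox4 again was not called by the quasi-likelihood test (-1.17 ± 0.29, adjusted p = 0.835). Of the 41, only Gpx3 had an unadjusted p under 0.05, beside 3.22% of all genes. It measured 319, 369 and 241 RPKM in WT and 226, 249 and 163 RPKM in Nox4 KO, groups that overlapped (-0.52 ± 0.21, unadjusted p = 0.0404, adjusted p = 0.835). Gpx8 measured 186, 251 and 192 RPKM in WT and 156, 183 and 171 RPKM in Nox4 KO, and was the single gene of the 41 whose groups did not overlap (-0.28 ± 0.12, adjusted p = 0.835), beside 5.92% of all genes with KO below WT. Gpx4, whose libraries are given above, had a log2 fold change of -0.27 ± 0.15 (adjusted p = 0.835).

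The sign leaned one way without any gene passing the test. After TGF-β2, 35 of the 41 log2 fold changes were below 0, beside 49.6% of all genes, with a median of -0.18 beside 0.00. All 5 glutathione peroxidases, all 7 genes of peroxiredoxins and sulfiredoxin and all 8 transferases had values below 0. Without WT library 2 with TGF-β2, 27 of 41 values were below 0 and the median was -0.07. Genes of 1 library share its RNA and its scaling, so the 41 values are not independent.

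**Figure D5:**
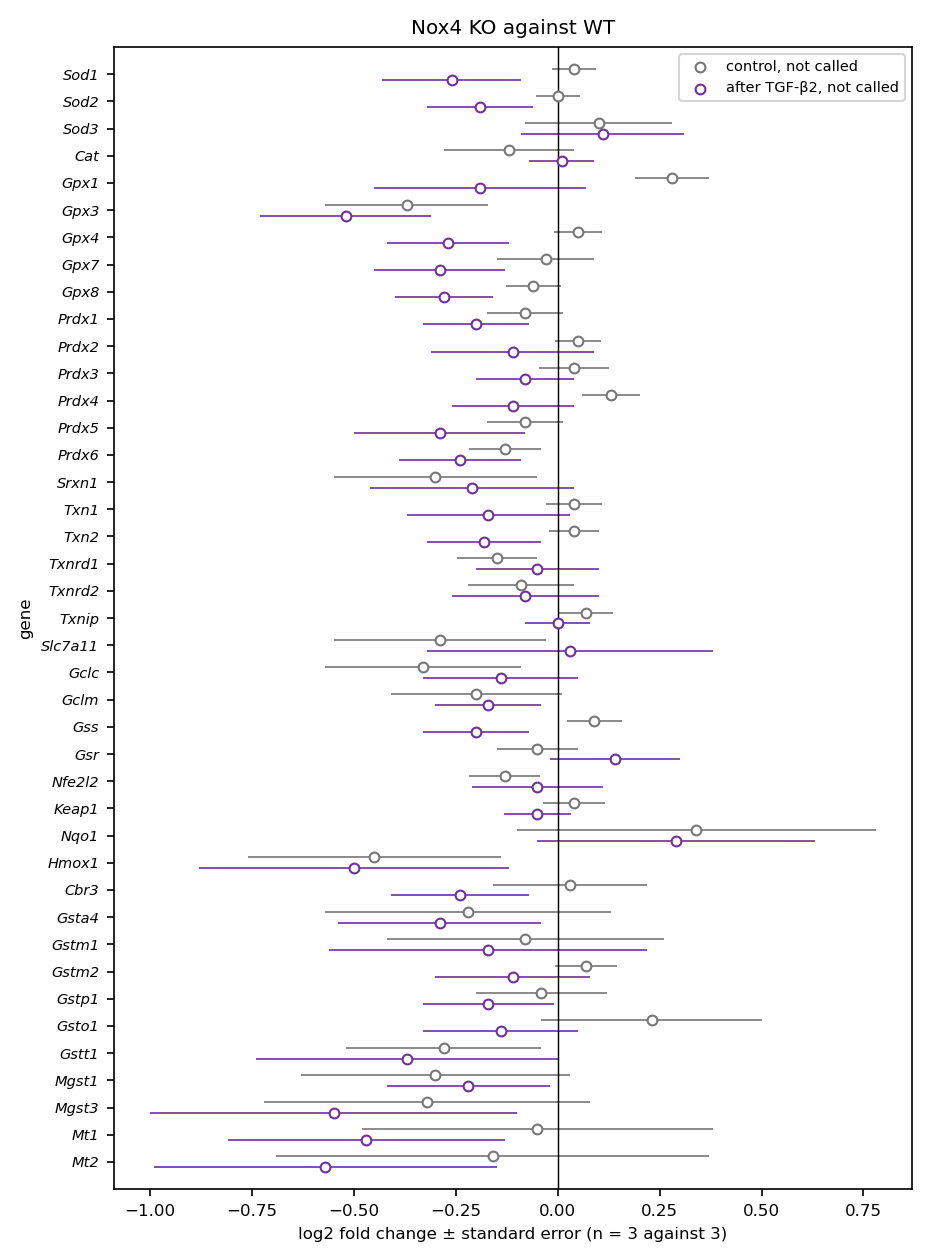
Log2 fold change of Nox4 KO against WT for the 41 genes in control (grey) and after TGF-β2 (purple), with standard errors, 3 libraries against 3; open points were not called. Control values scatter on both sides of 0 (25 of 41 below), while 35 of 41 purple points lie below 0, none with an adjusted p under 0.05.

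The interaction asks whether the response to TGF-β2 differed between genotypes. It called none of the 41 genes by edgeR's quasi-likelihood test over the 12 libraries, as none of 10890 genes was called (0%), nor did DESeq2 call any of the 41. No member of the set had an unadjusted p under 0.05, beside 2.66% of all genes, and the smallest adjusted p was 0.85. The smallest unadjusted p-values were those of Gpx4 (log2 value -0.32 ± 0.16), Gss (-0.29 ± 0.15) and Gpx1 (-0.47 ± 0.30), each with an adjusted p of 0.85, where a negative value means a lower change in Nox4 KO than in WT. Gss measured 16.5, 16.3 and 15.8 RPKM in WT control, 20.5, 24.7 and 18 RPKM in WT with TGF-β2, 17.5, 18.3 and 17.1 RPKM in Nox4 KO control and 18.9, 18.8 and 16.2 RPKM in Nox4 KO with TGF-β2. Its stimulated libraries were above the controls in WT and overlapped them in Nox4 KO. Gpx1 measured 185, 341 and 209 RPKM in WT and 178, 178 and 275 RPKM in Nox4 KO with TGF-β2, each overlapping its control group.

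Over the 41 genes, 30 interaction values were below 0, beside 49.8% of all genes, with a median of -0.13. This count fell to 21 of 41, with a median of -0.01, without WT library 2 with TGF-β2 and was 38 of 41 without WT control library 3. These comparisons use the same 12 libraries as the responses above and add no independent samples. For Sod3, Gstt1 and Mgst1 the responses of the genotypes stood side by side at -1.34 and -1.34, -2.46 and -2.57, and -2.24 and -2.17.

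Genes around this set were read from 5 further lists, whose counts stand beside 12.3% of all genes called lower and 10.6% called higher in WT, and 15.0% lower and 15.2% higher in Nox4 KO. Of 23 other NRF2-related genes tested, 7 fell and 0 rose in WT, and 8 fell and 1 rose in Nox4 KO. Ephx1, microsomal epoxide hydrolase, fell from 196 ± 50 to 70.7 ± 12.4 RPKM in WT (-1.43 ± 0.19, adjusted p = 0.00364) and from 201 ± 57.9 to 66.4 ± 23 RPKM in Nox4 KO (-1.51 ± 0.29, adjusted p = 0.014). Aox1, an aldehyde oxidase, fell at least 2-fold in WT (-1.62 ± 0.32, adjusted p = 0.0138).

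Of the other glutathione and thiol genes, 3 of 31 fell and 1 rose in WT, and 7 of 30 fell and 2 rose in Nox4 KO. Oplah, 5-oxoprolinase of glutathione turnover, fell in both genotypes (-1.82 ± 0.21, adjusted p = 0.00217, and -1.59 ± 0.16, adjusted p = 0.00324), as did Glrx, glutaredoxin (-1.29 ± 0.15, adjusted p = 0.00234, and -1.13 ± 0.23, adjusted p = 0.0162).

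Of 9 tested genes tied to the formation of superoxide or hydrogen peroxide, 2 rose and 4 fell in WT, and 3 rose and 5 fell in Nox4 KO. The 9 count Cyba, a partner subunit of NOX4, and Nox4 itself, whose KO reads come from the disrupted gene. Nox4 reads rose in both (2.83 ± 0.32, adjusted p = 0.00211, and 2.65 ± 0.35, adjusted p = 0.0054). Loxl2, a lysyl oxidase, rose in WT (0.98 ± 0.19, adjusted p = 0.0119) and at least 2-fold in Nox4 KO (1.18 ± 0.17, adjusted p = 0.0069). Xdh, xanthine dehydrogenase, fell from 10.4 ± 3.7 to 1.47 ± 0.753 RPKM in WT (-2.77 ± 0.40, adjusted p = 0.00488) and from 10.5 ± 2.46 to 1.23 ± 0.277 RPKM in Nox4 KO (-3.02 ± 0.26, adjusted p = 0.0023). The monoamine oxidases Maoa and Maob fell at least 2-fold in both genotypes, as did the amine oxidase Aoc3 in WT. In Nox4 KO Aoc3 was also called lower, at less than 2-fold (-0.96 ± 0.25, adjusted p = 0.0335). The log2 fold changes in WT were -1.14 ± 0.088 for Maoa, -1.44 ± 0.31 for Maob and -1.21 ± 0.12 for Aoc3.

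Arrdc3, an arrestin-domain relative of Txnip, fell in both genotypes (-1.77 ± 0.22, adjusted p = 0.00278, and -1.54 ± 0.10, adjusted p = 0.00128) and was the gene called of 6 in its list in WT and 1 of 2 called in Nox4 KO. Of 5 metal-handling partners of the metallothioneins, 0 were called in WT and 2 in Nox4 KO, Slc39a14 higher and Atox1 lower. In WT the 5 metal genes are the only list with no call at an adjusted p under 0.05. None of the 5 lists held a gene called between genotypes or in the interaction.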

How the data were processed

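RNA sequencing measured 12 libraries of primary mouse skin fibroblasts in 4 groups of 3, grouped by the labels. Per the methods and the submitters' processing notes, the authors aligned single-end reads with STAR 2.4 (genome GRCm38), dropped those matching more than 1 place, and deposited raw counts of reads per gene from featureCounts 1.4.6 on merged exons of protein-coding isoforms. Strand use is not given in the sources used here. All columns were assigned to a sample.

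From these counts, RPKM was computed with the library total and the merged exon length of the GENCODE annotation of GRCm38. Genes reaching 1 RPKM on average in 1 or more groups of a fit were normalized by TMM and tested with edgeR 4.0.16 (quasi-likelihood, R 4.3.3) with Benjamini-Hochberg adjustment over all of them. A call is an adjusted p under 0.05 at any fold change. The standard error was derived from the F statistic. Each comparison was fitted on its own 6 libraries, the interaction on all 12. The tests were checked on simulated counts.

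The 41 genes, their role groups, the 5 further lists, the marker lists and the rule for naming were chosen with earlier results of these data known. Library values are given for members called at 2-fold or more, for the member with the smallest adjusted p after TGF-β2 in WT in each role group, and for the 3 members with the smallest unadjusted p in each genotype comparison and the interaction; those of Mgst3, Mt1, Hmox1 and Gpx4 in WT were added after their values were seen. Of other genes, Nox4 and those called at 2-fold or more are named, with Slc39a14 and Atox1 added after their values were seen.

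Same-numbered KO control and stimulated libraries correlated in their deviations from the group means (0.763, 0.688 and 0.741), so the numbers were treated as pairs. Neither labels nor methods state this pairing, and the check used the same counts as the tests. In WT the values were 0.0619, 0.415 and 0.525, and the numbers were not taken as pairs.

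Alternatives were DESeq2 1.42.0, edgeR's exact and legacy tests, upper-quartile and total count normalization, 2 other filters, all 12 libraries in 1 fit, a replicate block, a 2-fold limit and leaving out each library. TMM with library sizes from all counted genes was added after seeing the data. Upstream sequences came from RefSeq (GRCm38.p6).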

Additional observations from a re-analysis of the deposited data

How the results depend on the processing

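The count of genes called after TGF-β2 in WT, 10, was 9 to 14 under the other tests, scalings, filters and the replicate block, and 5 with a 2-fold limit as well. Leaving out 1 library gave 6 to 15 genes, with 6 without WT control library 3 or WT library 1 with TGF-β2. In Nox4 KO the count of 14 was 10 to 20 under the other tests, scalings and filters, 28 with the replicate block and 4 with the 2-fold limit. Leaving out 1 library gave 5 to 18 genes, with 8 without control library 1, 7 without control library 2, 5 without stimulated library 1 and 6 without stimulated library 2. Each such fit also holds fewer samples, and the cause of the changes in count was not tested. In WT the replicate block gave 14 genes, although the numbers were not taken as pairs there. The genotype comparisons and the interaction called 0 of the 41 genes in each alternative and with each library left out, the replicate block included. The log2 fold change of Prdx2 in WT, -0.03 and not called, was 0.01 without the filter, and -0.31 to 0.13 with 1 library left out, with values of 0.00 without WT control library 2, 0.02 without WT library 1 with TGF-β2 and 0.13 without WT library 3 with TGF-β2. No scaling moved the median of all genes by more than 0.1 on the log2 scale. Txn2 in WT lost its call under upper-quartile and total count normalization and when each group had to reach 1 RPKM, with an adjusted p of at most 0.0662 over the alternatives, and Nqo1 with all 12 libraries in 1 fit (adjusted p = 0.0518). In Nox4 KO, that fit ended the calls of Sod1 (0.377), Prdx2 (0.442), Prdx5 (0.107), Keap1 (0.0546), Gstp1 (0.0624) and Txn2 (0.0578), the exact test those of Sod1 (0.0985), Prdx2 (0.12) and Txnip (0.0646), no filter those of Sod1 (0.0789) and Prdx2 (0.0689), and total count normalization that of Txn2 (0.0567). The number of libraries, 3 a group, limits the reading of small differences. The exact test and the fit of all 12 libraries do not apply to the interaction.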
